A study of Salmo salar with 64 samples.

Results

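nr5a1b and cyp17a1 are a regulator and an enzyme of steroid hormone synthesis, and their transcripts were followed through the onset of sexual maturation in Atlantic salmon (Salmo salar). Both genes were taken by gene number from the count table, nr5a1b as 106570956 and cyp17a1 as 106576693, so that 2 of its 81574 genes are described here. Messenger RNA had been sequenced from pituitary, ovary, brain and liver of female brood fish of 1 management group, about 3 years old and held in tanks. T1 preceded the switch to a long-day light regime, whereas fish of T2, T3 and T4 were sampled under that regime, 2 weeks apart. There were 4 libraries, labelled as biological replicates, per tissue and time point, which makes 16 groups and 64 libraries. No group carried an altered gene or received a drug. T1 is the only untreated group, so time and light cannot be told apart.

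NR5A1, also called steroidogenic factor 1, is an orphan nuclear receptor. In mammals it is needed for the development of the gonads and adrenals, drives many genes of steroid synthesis including CYP17A1, and acts in the gonadotropes of the pituitary, where it helps to switch on the gonadotropin subunit genes. CYP17A1 is a cytochrome P450 with 17α-hydroxylase and 17,20-lyase activity. It stands at the branch that leads from progestogens to androgens, which the aromatase of the follicle turns into oestrogens. In the fish ovary testosterone is made by the theca layer and aromatised in the granulosa layer, under control of the gonadotropins.

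The ovary libraries held total counts of 18.6 to 30.6 M (mega) and the pituitary libraries 23.0 to 29.0 M, while liver ranged from 20.6 to 34.9 M and brain from 17.5 to 51.9 M. Levels are given as CPM, which are counts per M of the library total, scaled with edgeR's TMM factors within each tissue, and they do not take gene length into account, so only levels of the same gene are compared. Pituitary, ovary and liver each held their own defining markers. The summed level of 5 pituitary hormone genes was 128841 to 235286 CPM in pituitary, that of 5 oocyte genes was 1252 to 1803 CPM in ovary, and that of 6 hepatocyte genes was 21915 to 63619 CPM in liver. The sum of 3 neuronal and glial genes varied over a wide range in the brain libraries, from 201.5 to 6275 CPM. In pituitary it was 139.4 to 206.5 CPM, so the lowest brain library lay within the pituitary range. The authors left brain out of their own comparisons because its replicates differed. In tissue RNA, a change in the number of cells that make a transcript and a change in its amount per cell cannot be told apart.

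Transcripts of nr5a1b were most abundant in pituitary and those of cyp17a1 in ovary. Across the 16 libraries of a tissue, nr5a1b averaged 40.2 ± 16.5 CPM (SD, n = 16) in pituitary, 6.90 ± 4.08 in ovary, 0.796 ± 1.54 in brain and 0.0883 ± 0.0762 in liver. cyp17a1 averaged 24.3 ± 13.96 CPM (SD, n = 16) in ovary, 2.86 ± 2.08 in pituitary, 0.214 ± 0.120 in brain and 0.0499 ± 0.0628 in liver. The lowest pituitary library of nr5a1b, at 18.1 CPM, lay above the highest ovary library, at 13.5 CPM. For cyp17a1 the lowest ovary library was at 9.14 CPM and the highest pituitary library at 9.12 CPM, and per library total without TMM scaling these were 8.83 and 11.1 CPM, so that the ranges of both tissues overlapped on that scale.

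**Figure D1:**
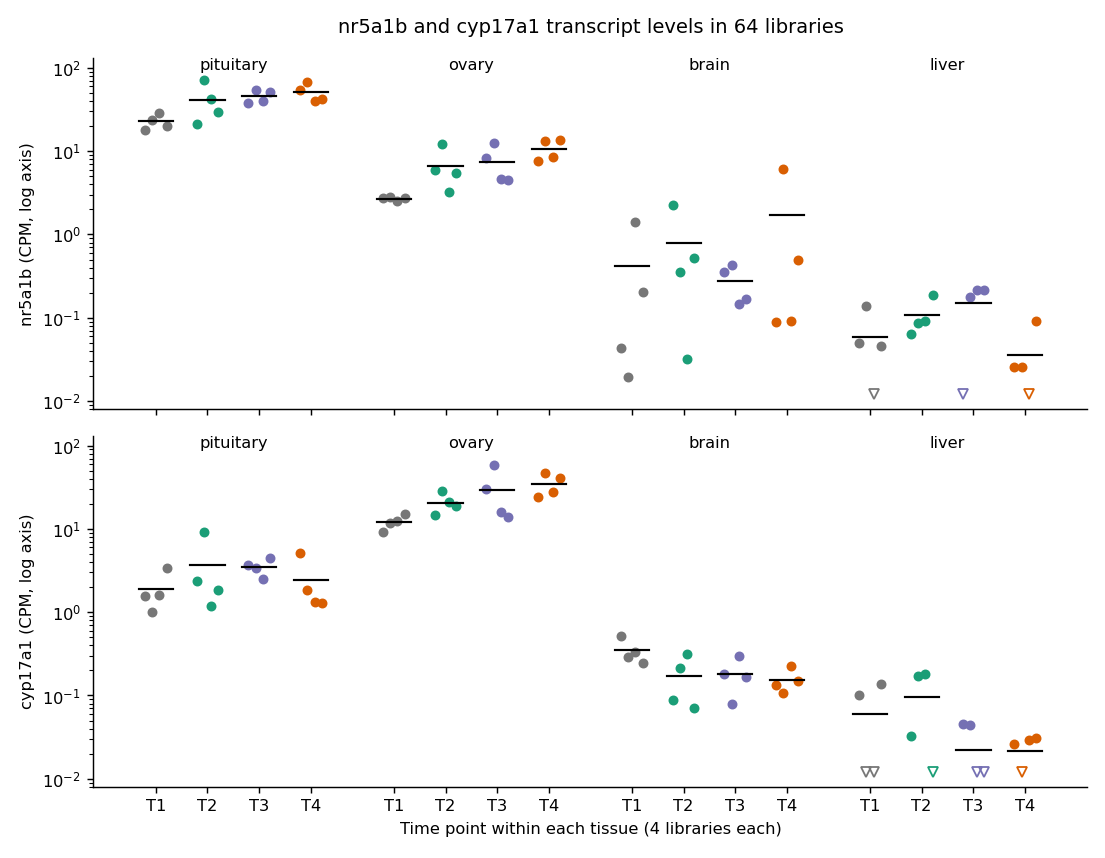
Levels of nr5a1b (top) and cyp17a1 (bottom) in CPM on a log axis, by tissue and time point. Each dot is 1 of 64 libraries, lines are means of 4 libraries, and open triangles at the foot mark libraries with 0 counts; nr5a1b sits highest in pituitary and cyp17a1 highest in ovary.

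These differences between tissues were larger than the spread between libraries. In a quasi-likelihood fit over the 64 libraries (edgeR, Benjamini-Hochberg adjusted p), nr5a1b was 9.26-fold higher in pituitary than in ovary (log2 3.21, SE 0.35, adjusted p = 2.97e-12), and its log2 difference was 6.31 against brain (SE 0.42, adjusted p = 2.42e-19). cyp17a1 was 5.45-fold higher in ovary than in pituitary (log2 difference of pituitary minus ovary -2.45, SE 0.25, adjusted p = 5.50e-13), and the log2 difference of ovary minus brain was 6.50 (SE 0.32, adjusted p = 1.28e-25). Differences between tissues were common among the 40282 genes tested. 67.3% of them passed an adjusted p of 0.05 with an absolute log2 difference over 1 between pituitary and ovary, 42% between pituitary and brain and 71.4% between ovary and brain. With library totals in place of TMM scaling, an alternative chosen after seeing the data, the pituitary to ovary difference was 2.67 for nr5a1b and -3.002 for cyp17a1.

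Liver held almost no reads of either gene. nr5a1b had 0 to 5 counts per liver library and was at 0 in 3 of 16, and cyp17a1 had 0 to 4 counts and was at 0 in 6 of 16. A count of 0 allows up to 3 counts, so most of these values are at the limit of detection, and neither gene passed the filter on low counts in any liver comparison. The liver carried another member of the same receptor family, nr5a5. Its T1 libraries held 90.5, 80.6, 105 and 82.3 CPM, and those of T2 held 27.4, 29.0, 44.2 and 24.7 CPM. It was lower than T1 at each later time point, by a log2 fold change of -1.53 at T2 (SE 0.20, adjusted p = 0.000560), -1.16 at T3 (SE 0.19, adjusted p = 0.00316) and -1.14 at T4 (SE 0.20, adjusted p = 0.00392), all by edgeR. In liver 15%, 7.65% and 11.3% of the genes tested were called at T2, T3 and T4. In ovary nr5a5 had a mean of 0.525 CPM at T1 and of 0.244 CPM at T4 and was not called.

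In brain both genes had low counts in most libraries and were not tested over time, because they did not pass the same filter. cyp17a1 had 2 to 15 counts per brain library, with a mean of 0.348 ± 0.123 CPM at T1 (SD, n = 4) and of 0.155 to 0.180 CPM at the later time points. nr5a1b was uneven. It reached 6.15 CPM (115 counts) in replicate 2 of T4, 2.23 CPM in replicate 1 of T2 and 1.41 CPM in replicate 3 of T1, and lay between 0.0195 and 0.527 CPM in the 13 other libraries. Of the pituitary hormone genes, fshb (6.52 CPM) and lhb (1.92 CPM) were also at their brain maximum in the library with the highest nr5a1b, against 3.43 to 3.67 CPM and 0.841 to 1.39 CPM in the other T4 libraries. glha1 (9.73 CPM), glha2 (19.7 CPM) and pomca (207 CPM) lay within the range of the other T4 libraries. The part of pituitary transcripts in this value was not tested.

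In ovary nr5a1b rose after T1 and was about 4-fold higher at T4. The T1 libraries lay close together at 2.71, 2.79, 2.55 and 2.73 CPM (mean 2.70 ± 0.104, SD, n = 4). At T2 the values were 5.89, 12.3, 3.25 and 5.46 CPM, at T3 8.37, 12.5, 4.58 and 4.49 CPM, and at T4 7.56, 13.4, 8.41 and 13.5 CPM. Every library of T2, T3 and T4 was above every library of T1. Groups that do not overlap in this direction were also found for 8.56%, 9.06% and 15% of the genes tested at T2, T3 and T4. In counts before scaling, the lowest T2 library (75) lay within the range of T1 (64 to 80), so the gap at T2 is narrow. The spread within a time point was far wider after T1 than at T1, and replicate 2 was the highest or next to highest at each.

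The edgeR quasi-likelihood test gave nr5a1b in ovary a log2 fold change of 1.32 at T2 (SE 0.35, adjusted p = 0.0620), 1.51 at T3 (SE 0.33, adjusted p = 0.0385) and 2.02 at T4 (SE 0.23, adjusted p = 0.0120), in the direction of 4 of 4 libraries each time. A gene was called at an adjusted p under 0.05 and an absolute log2 fold change over 1, and by this rule nr5a1b was called at T3 and T4 but not at T2. At T2, T3 and T4, 0.972%, 3.61% and 11.1% of the genes tested in ovary were called. At T4 nr5a1b ranked 20 of 31619 genes by p. The call at T3 was lost in 7 of 8 fits that each left out 1 library (adjusted p 0.0129 to 0.0974), all but the one without replicate 4 of T3. It was also lost in the fit with the replicate number as a block (adjusted p = 0.110). That block left 1 of 33029 genes called, and the numbers do not pair libraries of different time points, so this loss says little about nr5a1b itself.

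cyp17a1 rose in the ovary as well, and its change against T1 was called at T4 alone. At T1 it stood at 9.14, 11.7, 12.5 and 15.0 CPM. It was at 14.6, 28.8, 20.9 and 18.6 CPM at T2, at 30.1, 57.9, 15.97 and 13.9 CPM at T3, and at 23.9, 47.4, 27.7 and 40.7 CPM at T4. One library of T2 and 1 of T3 fell within the range of T1, whereas at T4 all 4 lay above it. Means and SDs (n = 4) went from 12.1 ± 2.41 CPM at T1 to 20.7 ± 5.95, 29.5 ± 20.3 and 34.9 ± 10.97 CPM. The log2 fold change against T1 was 0.78 at T2 (edgeR, SE 0.21, adjusted p = 0.0693), 1.32 at T3 (SE 0.42, adjusted p = 0.0885) and 1.56 at T4 (SE 0.24, adjusted p = 0.0143), a 2.95-fold rise at T4. Replicate 2 of T3 set much of the mean at that time point, and without it the log2 fold change was 0.75. At T4 both genes stayed called in each of the 8 fits that left out 1 library.

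**Figure D2:**
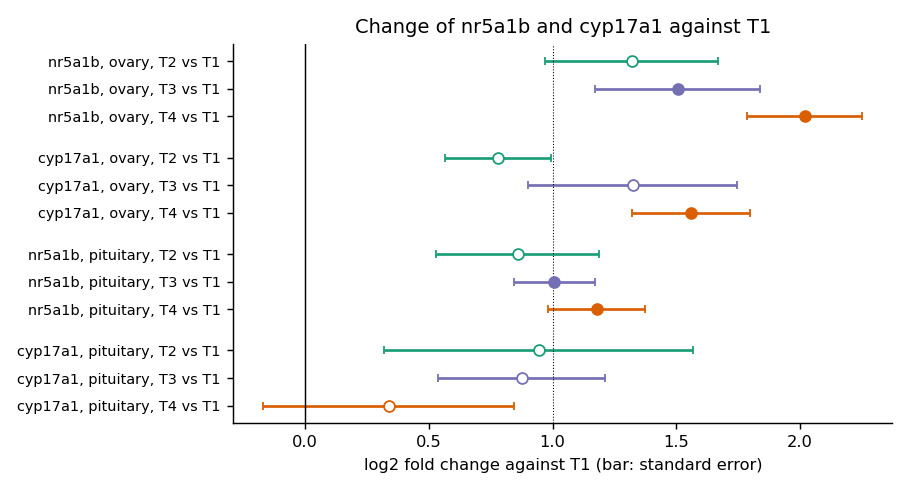
Log2 fold change of nr5a1b and cyp17a1 against T1 in ovary and pituitary from the edgeR quasi-likelihood fit, with standard error bars and a dotted line at 1. Filled circles are called changes and open circles are not; in ovary both genes reached their largest change at T4, with 2.02 for nr5a1b and 1.56 for cyp17a1.

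Steps between later time points were not called. Between consecutive later time points the log2 fold changes in ovary were 0.15 (T3 against T2) and 0.51 (T4 against T3) for nr5a1b and 0.51 and 0.24 for cyp17a1, with adjusted p from 0.766 to 0.942 (edgeR).

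Markers of several cell types moved in the ovary over the same weeks. The summed level of 5 of 7 listed somatic cell markers (amh, fshr, lhcgr, inha and wt1a) was 378 to 620 CPM in the T1 libraries and 750.0 to 1236 CPM at T4. That of 5 of 7 oocyte markers was 1616 to 1803 CPM at T1 and 1252 to 1484 CPM at T4. That of 3 of 5 leukocyte markers was 123 to 251 CPM at T1 and 453 to 2263 CPM at T4, with ptprc highest in replicates 4 and 2 of T4, at 168 and 56.1 CPM, which also held the most nr5a1b. Single markers did not all move with these sums. fshr was at 9.41 to 12.4 CPM at T1 and at 10.8 to 12.9 CPM at T4. Most of the oocyte sum was zpax1, at 1063 to 1236 CPM at T1 and 823 to 947 CPM at T4. The ranges of gdf9, bmp15, figla and nobox overlapped between T1 and T4. None of these marker genes was at 0 in all libraries of a group, and their part in the changes of nr5a1b and cyp17a1 was not tested. Pituitary hormone transcripts were also present in ovary, at a summed 340 to 557 CPM at T1 and 107 to 182 CPM at T2. They were at 480 to 519 CPM at T3 and 313 to 428 CPM at T4. Brain and liver held them too, at 150 to 400 and 135 to 267 CPM at T1. The part of these transcripts was not tested.

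In pituitary nr5a1b roughly doubled. The T1 libraries held 18.1, 24.0, 28.7 and 20.1 CPM. Those of T2 held 21.2, 71.6, 42.0 and 29.3 CPM, those of T3 38.4, 53.7, 39.6 and 51.1 CPM, and those of T4 54.3, 68.6, 39.7 and 42.1 CPM. The T2 group overlapped T1 and contained the highest value of all, in replicate 2, while every library of T3 and T4 was above T1. Among the genes tested in pituitary, 6.91% were higher without overlap at T3 and 7.53% at T4.

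The mean of nr5a1b went from 22.7 ± 4.69 CPM at T1 (SD, n = 4) to 51.2 ± 13.3 CPM at T4. By the edgeR test the log2 fold change was 0.86 at T2 (SE 0.33, adjusted p = 0.139), 1.01 at T3 (SE 0.16, adjusted p = 0.0186) and 1.18 at T4 (SE 0.20, adjusted p = 0.0212), so that it was called at T3 and T4. Between T1 and T2, T3 and T4, 1.53%, 1.06% and 1.79% of the genes tested in pituitary were called. The value at T3 stood just past the fold threshold. Its call was lost in 4 of 8 fits without 1 library, namely replicates 1 and 4 of T1 and replicates 2 and 4 of T3 (log2 fold change 0.91 to 1.14, adjusted p 0.0119 to 0.0640). The call at T4 was lost in 3 of 8, without replicate 1 or 2 of T1 or replicate 4 of T4 (adjusted p 0.0134 to 0.0841). The T3 call was also lost with the replicate block (adjusted p = 0.0537), under which 64 of 33441 genes were called. It was lost as well when all 16 pituitary libraries entered the fit (adjusted p = 0.0781).

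cyp17a1 in pituitary showed no called change, and its values varied widely between libraries of T2 and of T4. Its values were 1.57, 1.02, 1.61 and 3.42 CPM at T1 and 2.40, 9.12, 1.19 and 1.85 CPM at T2. They were 3.64, 3.36, 2.48 and 4.52 CPM at T3 and 5.17, 1.84, 1.32 and 1.29 CPM at T4. Replicate 2 of T2 and replicate 1 of T4 stood apart from the rest of their groups, and all later groups overlapped T1. At T3 4 of 4 libraries were above the T1 mean, against 2 at T2 and 1 at T4. The log2 fold change was 0.94 at T2 (edgeR, SE 0.63, adjusted p = 0.367), 0.87 at T3 (SE 0.34, adjusted p = 0.161) and 0.34 at T4 (SE 0.51, adjusted p = 0.699). Without replicate 2 of T2 the change at T2 was -0.080, and without replicate 1 of T4 the change at T4 was -0.35.

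Ovarian markers were close to absent in the pituitary libraries. The summed level of the oocyte markers lay between 1.14 and 5.77 CPM and that of the ovarian somatic markers between 2.06 and 6.13 CPM, of which fshr was at 1.4004 to 4.496 CPM. In replicate 2 of T2, the pituitary library with the most cyp17a1, amh was at 1.28 CPM against 1.03 to 1.33 CPM in the other T2 libraries.

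From T1 to T4 the ratio of ovary to pituitary levels went up for both genes. These ratios are of CPM scaled within each tissue, so their size is not comparable with the fold differences from the fit over all libraries. The mean of nr5a1b in pituitary was 8.43 times that in ovary at T1, 6.10 and 6.11 times at T2 and T3, and 4.77 times at T4. The mean of cyp17a1 in ovary was 6.35 times that in pituitary at T1, 5.70 times at T2, 8.41 times at T3 and 14.5 times at T4. Tested as the difference between the tissues in the change since T1 (edgeR, ovary minus pituitary), nr5a1b gave 0.42, 0.39 and 0.71 on the log2 scale at T2, T3 and T4 (SE 0.49 each, adjusted p from 0.381 to 0.772). For cyp17a1 the difference was -0.22, 0.34 and 1.09 (SE 0.71 to 0.72, adjusted p from 0.355 to 0.942). Neither gene was called in these tests, where 0.631%, 1.76% and 7.31% of 37220 genes were, so the changes in the 2 tissues were not shown to differ.

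Within the ovary the 2 genes followed each other from library to library. Over the 16 ovary libraries, Pearson's r between log2(CPM + 1) of nr5a1b and of cyp17a1 was 0.904 (permutation p = 3.00e-05, adjusted over 4 relations 0.000120) and Spearman's rho was 0.90 (p = 5.00e-05, adjusted 0.000200). The relation was also found among fish of the same time point, where deviations from the time point means gave r = 0.788 (permutation p = 0.00492, adjusted 0.0197) and rho = 0.800. Without the 2 libraries farthest from the median of nr5a1b, replicates 2 and 4 of T4, r was 0.866 over all time points and 0.771 within them. Replicate 2 of T3, with 57.9 CPM of cyp17a1 and 12.5 CPM of nr5a1b, and replicates 2 and 4 of T4 had high levels of both.

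**Figure D3:**
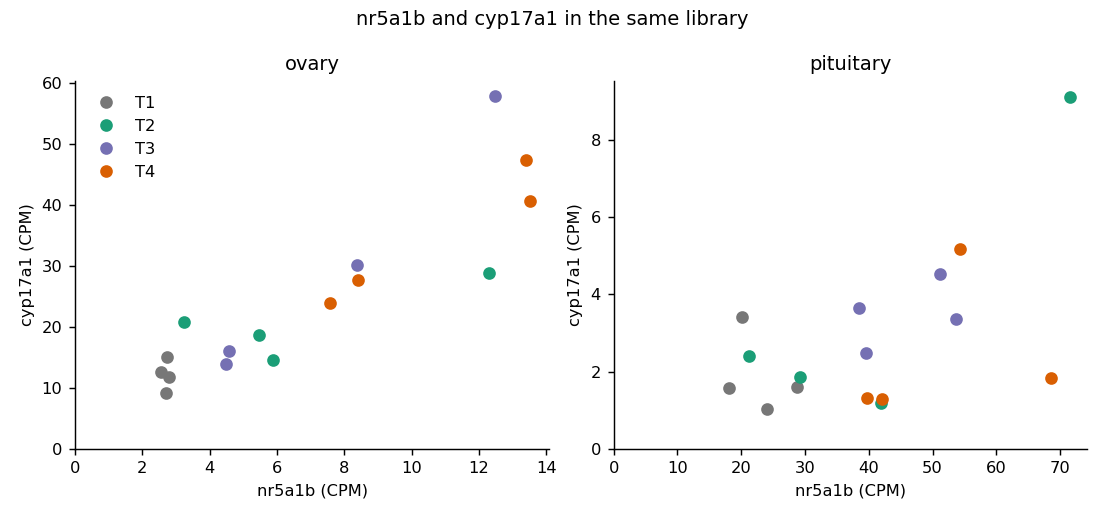
cyp17a1 against nr5a1b in the same library, in CPM, for 16 ovary libraries (left) and 16 pituitary libraries (right), coloured by time point. The ovary libraries lie along a rising band (r = 0.904 on the log2 scale), and in pituitary the highest library of both genes is replicate 2 of T2, at 71.6 CPM of nr5a1b and 9.12 CPM of cyp17a1.

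In pituitary the same relation was weak. There r was 0.471 (permutation p = 0.0655, adjusted 0.0873) and rho was 0.365 (p = 0.166, adjusted 0.222), and r within time points was 0.485 (p = 0.231). It leaned on replicate 2 of T2, without which r was 0.295. The value moved upward to 0.571 without replicates 1 and 4 of T1, the 2 libraries farthest from the median of nr5a1b.

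Fish numbers in the sample titles allow pituitary and ovary libraries of the same number to be set side by side, although the sources used here do not state that they come from 1 fish. nr5a1b in pituitary and in ovary correlated over the 16 pairs with r = 0.733 (permutation p = 0.00148, adjusted 0.00296) and rho = 0.712, and without the 2 libraries farthest from the median with r = 0.640. Within time points r was 0.374 (permutation p = 0.327, adjusted 0.436), so a relation among fish of the same time point was not shown. For cyp17a1 r was 0.186 (permutation p = 0.491) and rho was 0.212 over the 16 pairs.

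The genes around both in steroid synthesis were then compared, from lists of symbols of the pathway's synthesis genes, cofactors, regulators and receptors. The synthesis list held cholesterol transport genes besides enzymes. Besides nr5a1b, nr5a5 and cyp17a1, 19 listed genes were matched by symbol, and in ovary 16 of them passed the filter on low counts. Of these 16, none was called at T2, where 5 had an unadjusted p under 0.05, 1 was called higher at T3 and 4 were called higher at T4, all 5 calls by edgeR. The background for higher calls in ovary was 0.878%, 3.51% and 10.6% of genes. An unadjusted p under 0.05 (edgeR) was found for 7 of the 16 at T3 and for 10 at T4. The share of all genes at that cut was not counted, and the shares of calls are no measure of it. Low p-values were common: a p of 0.00487 ranked 2176 of 30963 genes at T2 and one of 0.0113 ranked 3969 of 31061 at T3 (edgeR). At T4 6737 of 31619 genes passed an adjusted p of 0.05 without the fold threshold. The median log2 fold change of the 16 was 0.07, 0.27 and 0.26, against -0.01, 0.01 and 0.01 over all genes tested. At T4 it was 0.96 for the 4 regulators and 0.95 for the 2 receptors. For the 6 synthesis genes it was 0.15 and for the 4 cofactors 0.10, so the listed genes did not rise as a block.

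hsd3b1, the dehydrogenase that converts pregnenolone to progesterone and so works beside cyp17a1, rose in ovary. It was at 15.1, 20.7, 20.6 and 17.5 CPM at T1 and at 34.3, 92.8, 43.1 and 70.3 CPM at T4, with no overlap. Its log2 fold change was 1.07 at T3 (edgeR, SE 0.26, adjusted p = 0.0447) and 1.73 at T4 (SE 0.29, adjusted p = 0.0144). fdx1b, a ferredoxin of the kind that passes electrons to mitochondrial P450 enzymes, was at 3.01, 3.04, 4.499 and 4.21 CPM at T1 and at 6.10, 10.5, 5.28 and 10.5 CPM at T4, again without overlap (log2 fold change 1.16, SE 0.28, adjusted p = 0.0241). For both, replicates 2 and 4 of T4 were the highest, as they were for nr5a1b and cyp17a1.

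star, which moves cholesterol into mitochondria, had 6 to 71 counts per ovary library. It stood at 0.677, 0.209, 0.358 and 0.467 CPM at T1 and at 0.398, 2.52, 0.535 and 2.22 CPM at T4. The T4 group overlapped T1, with replicates 2 and 4 high, and the change of 1.74 on the log2 scale was not called (edgeR, SE 0.65, adjusted p = 0.0832). A related gene outside the lists, star2, was added after its values were seen. It was at 2.78, 4.33, 7.01 and 4.78 CPM at T1 and at 8.92, 15.6, 5.66 and 9.99 CPM at T4. Its groups overlapped, and its log2 fold change of 1.12 at T4 stood just inside the call (edgeR, SE 0.35, adjusted p = 0.0496).

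The enzymes further along the pathway that were matched and are named here did not pass the thresholds. The symbols cyp19a1a, of the gonadal aromatase, and hsd17b1 had no match, so the response of these genes was not measured. hsd17b12a and hsd17b12b had log2 fold changes of -0.28 and -0.37 at T4, and the aromatase gene matched here, cyp19a1b, had a mean of 0.716 CPM before the light change and of 0.906 CPM at T4 (log2 fold change 0.36, adjusted p = 0.350, edgeR).

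Among the regulators and receptors, gata4 and lhcgr were called in ovary at T4. gata4, a transcription factor that acts together with NR5A1 on gonadal genes in mammals, was at 5.38, 4.99, 6.49 and 6.80 CPM at T1 and at 9.12, 23.0, 11.4 and 20.5 CPM at T4 (edgeR, log2 fold change 1.47, SE 0.30, adjusted p = 0.0171). lhcgr, the receptor for luteinizing hormone, was at 1.29, 1.08, 2.15 and 1.69 CPM at T1 and at 3.28, 6.06, 2.33 and 9.43 CPM at T4 (log2 fold change 1.80, SE 0.45, adjusted p = 0.0258). Neither gene overlapped between T1 and T4, and replicates 2 and 4 of T4 were again the highest. fshr, the receptor for follicle-stimulating hormone, averaged 11.2 CPM at T1 and 11.8 CPM at T4 (log2 fold change 0.10, SE 0.14, adjusted p = 0.627). nr0b2, whose mammalian counterpart represses NR5A receptors, averaged 2.09 CPM at T1 and 1.09 CPM at T4 and missed the call (log2 fold change -0.92, SE 0.29, adjusted p = 0.0505).

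**Figure D4:**
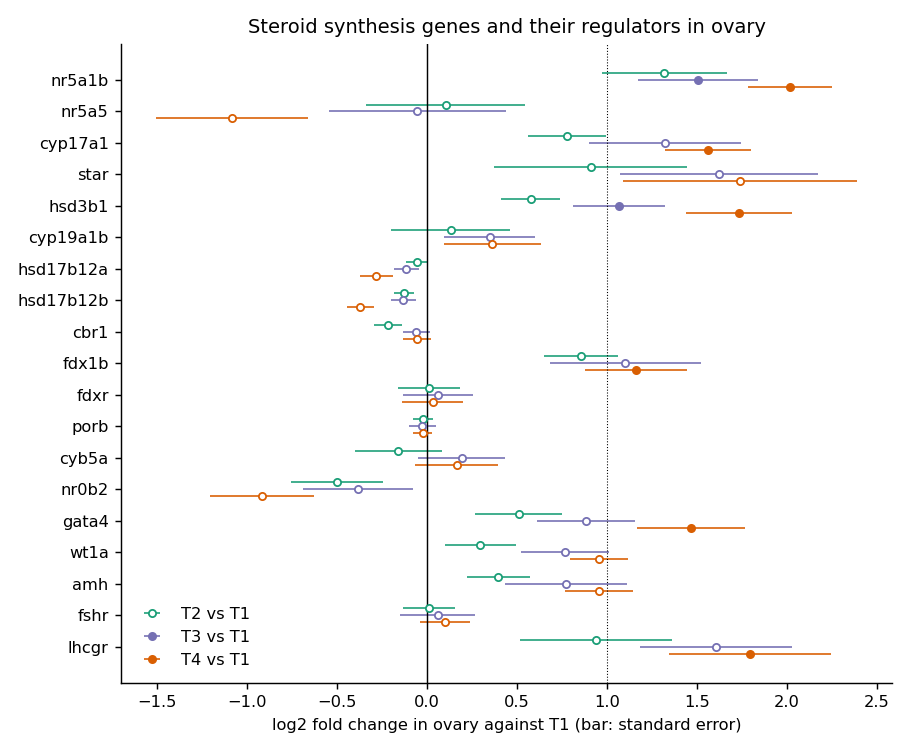
Log2 fold change against T1 in ovary for nr5a1b, nr5a5, cyp17a1 and the 16 other pathway genes tested, with standard error bars and a dotted line at 1, for T2, T3 and T4. Filled circles are called changes; apart from nr5a1b and cyp17a1 they belong to hsd3b1, fdx1b, gata4 and lhcgr.

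In pituitary 12 of the 19 listed genes passed the filter. At T2, T3 and T4 the edgeR test called 0 of the 12, against 1.53%, 1.06% and 1.79% of the genes tested in pituitary. Their median log2 fold change was -0.14, -0.11 and -0.21, against 0.002, -0.007 and 0.006 over all genes tested. An unadjusted p under 0.05 (edgeR) was found for 3, 3 and 5 of the 12. The share of all genes at that cut was not counted. Such values were common, as a p of 0.0268 ranked 6149 of 31997 genes at T2 and one of 0.0256 ranked 5075 of 31867 at T3. star, fdx1b, gata4, wt1a, lhcgr and nr0b2, which were measured in ovary, had mean levels of 0 to 0.125 CPM in each pituitary group. hsd3b1 was at 10.02 and 8.66 CPM in replicates 1 and 2 of T4 and at 0.0772 to 0.954 CPM in the other 14 pituitary libraries, a change that was not called (log2 fold change 2.97, SE 0.91, adjusted p = 0.0772). cyp19a1b, the aromatase form that in teleosts is typical of brain and pituitary, had a T1 mean of 208 ± 54.6 CPM (SD, n = 4) and a T4 mean of 358 ± 99.0 CPM and was not called either (log2 fold change 0.80, SE 0.23, adjusted p = 0.0664).

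Of the gonadotropin subunit genes, which mammalian NR5A1 helps to activate, glha1 and lhb ran along with nr5a1b in pituitary. This comparison was chosen after seeing the data. Whether the relation is particular to gonadotropins was not tested, because of the other hormone genes only pomca was included. tshba, the thyrotropin beta subunit gene, was at 2026 to 13869 CPM at T1 and at 19186 to 36585 CPM at T4. The relation of tshba and of prl to nr5a1b was not tested. Over the 16 pituitary libraries the shared subunit gene glha1 correlated with nr5a1b with r = 0.891 (permutation p = 1e-05, the smallest that 100000 permutations can give, adjusted over 6 relations 6.00e-05) and rho = 0.832. Among fish of the same time point r was 0.9003 (permutation p = 0.000220, adjusted 0.00132). Without the 2 libraries farthest from the median of glha1, r was 0.829 over all time points and 0.801 within them. lhb gave r = 0.722 (permutation p = 0.00147, adjusted 0.00294) and rho = 0.691, with r = 0.651 within time points (p = 0.0315, adjusted 0.0472) and r = 0.748 without the 2 farthest libraries.

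Over the 16 libraries the other alpha subunit and fshb followed nr5a1b less closely. For glha2 r was 0.648 (permutation p = 0.00670, adjusted 0.01005) and rho 0.603, but r fell to 0.413 without replicates 1 and 4 of T1 and was 0.349 within time points (p = 0.220), so that it rested on the change after T1. For fshb r was 0.467 (permutation p = 0.0686, adjusted 0.0686) and rho 0.562 (p = 0.0257, adjusted 0.0309). Within time points fshb gave r = 0.615 (permutation p = 0.0136, adjusted 0.0273) and rho = 0.624 (p = 0.0316, adjusted 0.0633). Over all time points its r was 0.797 without replicates 3 and 4 of T4. These 2 libraries had little fshb, at 86.2 and 127 CPM, while their nr5a1b was at 39.7 and 42.1 CPM. By the edgeR test, none of fshb, lhb, glha1 and glha2 was called against T1, with log2 fold changes at T4 of 1.41, 1.44, 0.66 and 1.09 and adjusted p of 0.396, 0.0704, 0.169 and 0.0781.

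pomca, the hormone precursor of corticotropes and melanotropes, went the other way. It ranged widely between pituitary libraries, with 13517 to 180526 CPM, which is 1.35% to 18.1% of the scaled total. Its r with nr5a1b was -0.798 (permutation p = 0.000110, adjusted 0.000330) and rho -0.829. Within time points r was -0.877 (permutation p = 0.000870, adjusted 0.00261). Without replicate 2 of T2 and replicate 2 of T4, r was -0.696 over all time points and -0.747 within them. pomca with cyp17a1 gave r = -0.477 (permutation p = 0.0603, adjusted 0.0686) and rho -0.165, and r was -0.194 without the same 2 libraries. Part of the differences in nr5a1b between pituitary libraries thus went along with the balance of hormone transcripts in the sample, and the share of nr5a1b's change after T1 that goes with it was not tested.

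**Figure D5:**
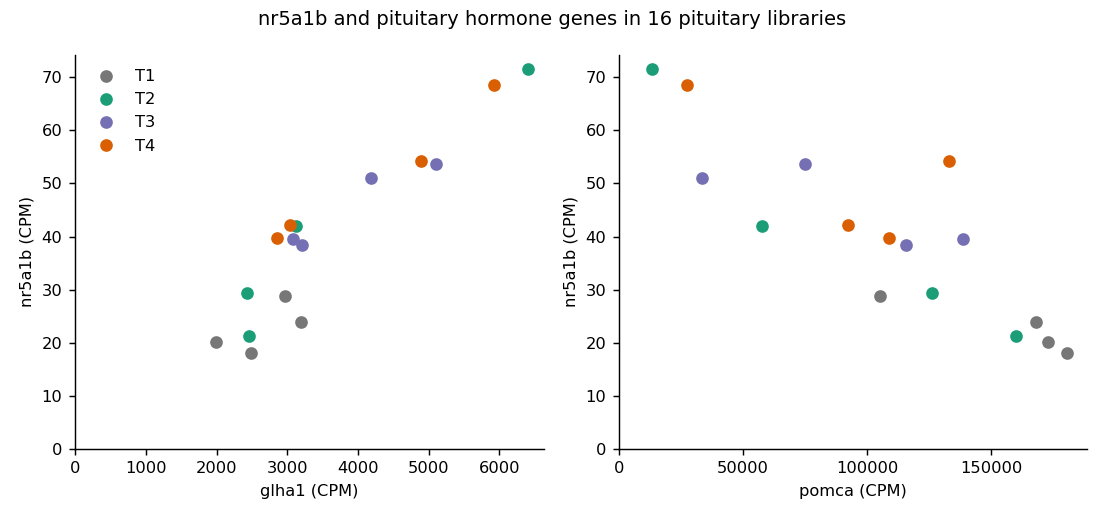
nr5a1b in CPM against glha1 (left) and pomca (right), all in CPM, in the 16 pituitary libraries, coloured by time point. nr5a1b is highest in replicate 2 of T2, at 71.6 CPM, where glha1 is highest (6407 CPM) and pomca lowest (13517 CPM).

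Genes with the most similar pattern were sought by Pearson's r of log2(CPM + 1) over the 16 libraries of a tissue, among genes with a mean of at least 1 CPM. In ovary the 5 most like nr5a1b were LOC106588749 (r = 0.973), plod3 (0.972), a lysyl hydroxylase of collagen, fhdc1 (0.972), LOC106571747 (0.965) and LOC106586778 (0.964). They averaged 7.67, 5.25, 4.61, 1.26 and 1.19 CPM at T1 and 33.2, 17.1, 13.6, 3.83 and 6.65 CPM at T4. Those most like cyp17a1 were ankrd50 (0.972), LOC106590362 (0.967), the gene numbered 106606146 (0.963), LOC106565266 (0.961) and LOC106589770 (0.961). In ovary r exceeded 0.9 for 218 of 27544 genes with nr5a1b and for 236 with cyp17a1. Each of the pair was among these genes for the other, though not among the 5 most alike. cyp17a1 ranked 190 for nr5a1b and nr5a1b ranked 206 for cyp17a1.

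In pituitary the 5 genes most like nr5a1b were LOC106569244 (r = 0.971), LOC106582919 (0.951), LOC106564549 (0.945), LOC106584030 (0.944) and wasf3a (0.943), and 38 of 28285 genes exceeded 0.9. LOC106569244 averaged 19.8 CPM at T1 and 29.6 CPM at T4. For cyp17a1 the nearest were pkib (0.848), an inhibitor of protein kinase A, shisa3 (0.841), LOC106564405 (0.837), LOC106568151 (0.828) and LOC106574824 (0.824), and none exceeded 0.9. cyp17a1 ranked 5470 for nr5a1b and nr5a1b ranked 1739 for cyp17a1. These are descriptions of 16 libraries each, which share the course of time.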

How the data were processed

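RNA-seq libraries of pituitary, ovary, brain and liver were analysed, 64 in 16 groups of 4, grouped by the labels. The authors mapped TruSeq NovaSeq reads to ICSASG_v2 with TopHat2 2.1.1 and counted unique exonic reads with HTSeq 0.7.2 (strand reverse; SAMtools 1.4), so close paralogs may be undercounted. The deposited counts are whole numbers per gene. A second deposited table held log2 values, which equalled log2(CPM + 1) within 3.71e-05 though the methods speak of FPKM, and was used for limma-trend only.

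Tests used edgeR 4.0.16 in R 4.3.3 (filterByExpr, TMM, quasi-likelihood), with the 8 libraries of a comparison, 64 for tissue levels, or pituitary and ovary libraries together. A call needed adjusted p under 0.05 and absolute log2 fold change over 1. Correlations used a pseudocount of 1 and 100000 two-sided permutations, within time points for deviations. Alternatives were RLE, no filter, a replicate block, DESeq2 1.42.0, the exact test, all 16 libraries of a tissue, limma-trend, adjusted p alone, and each library left out.

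Symbols came from the RefSeq table of Ssal_v3.1, and listed symbols it did not match are not analysed here. These include those of the side chain cleavage enzyme and the gonadal aromatase. Of the families of the main genes, nr5a1a, nr5a2 and cyp17a2 did not match either, so the families were not surveyed. As that assembly differs from the mapping one, no coordinates are given, and no sequences were used here. Genes named are both main genes, nr5a5 of their families, listed genes called in ovary or pituitary, star, fshr, and the 5 most alike in each tissue. The gonadotropin subunit genes, pomca, star2, cyp19a1b, hsd17b12a, hsd17b12b, nr0b2 and the marker genes were added after their values were seen. The main genes and the lists were chosen with earlier results of these data known. Counting error alone understates the error of reads without molecular identifiers, and the labels give no date or batch.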

Additional observations from a re-analysis of the deposited data

Results flagged for a closer look

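Groups of 4 libraries were used if at least 1 library had more than 3 counts, which left 27. Some of them were liver groups near the limit of detection. Each gene's highest and lowest library was compared with the rest of its group by Dixon's ratio, which flags about 1 in 20 groups by chance. 4 libraries stood apart. nr5a1b in brain was at 1.41 CPM in replicate 3 of T1, against 0.0195 to 0.204 CPM in the other 3 libraries. nr5a1b in brain was at 6.15 CPM in replicate 2 of T4, against 0.0885 to 0.489 CPM. cyp17a1 in pituitary was at 9.12 CPM in replicate 2 of T2, against 1.19 to 2.40 CPM, and this library also held the most nr5a1b (71.6 CPM) and the least pomca (13517 CPM) of all pituitary libraries. cyp17a1 in pituitary was at 5.17 CPM in replicate 1 of T4, against 1.29 to 1.84 CPM, and hsd3b1 was highest in the same library, at 10.02 CPM. The brain library of T4 had cyp17a1 at 0.107 CPM, so nr5a1b was high there without cyp17a1.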

How the results depend on the processing

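Both genes kept their call in ovary at T4 under all 8 alternatives (log2 fold change 1.66 to 2.02 for nr5a1b and 1.47 to 1.56 for cyp17a1) and in each of 8 fits without 1 library (1.88 to 2.14 and 1.38 to 1.69, adjusted p up to 0.0488). The alternative by adjusted p alone only drops the fold threshold from the main fit, so it could not lose a call. In ovary nr5a1b at T2 was also called by DESeq2 (1.32, adjusted p = 0.00539) and by the edgeR exact test (1.32, adjusted p = 0.0184), and cyp17a1 at T3 by the exact test (1.32, adjusted p = 0.0279). With the replicate number as a block nr5a1b at T3 was not called in ovary (1.37) or in pituitary (1.01), nor in pituitary with all 16 libraries (1.01). The block turned the sign of 2 uncalled values of cyp17a1, the pituitary step from T2 to T3 (0.35, and 0.20 by limma-trend, against -0.07) and the ovary minus pituitary difference at T2 (0.065 against -0.22), and it changed no other call than these and that between brain and liver. The numbers do not pair libraries of different time points. For deviations from the group means, a correlation over 0.1 in every same-numbered pair was found in 0 of 12 sets within a tissue (range -0.72 to 0.75) and in 2 of 4 sets between ovary and pituitary.

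The difference of cyp17a1 between brain and liver, both near the limit of detection, stood at 1.00 and passed the fold threshold with RLE scaling (1.09), the block (1.06) and library totals (2.19). The correlation of both genes in pituitary passed 0.05 with CPM of the library total (0.570) and without the 2 farthest libraries (0.571). That of nr5a1b between pituitary and ovary did not within time points (0.374). fshb with nr5a1b in pituitary passed within time points (0.615), with the library total (0.504) and without the 2 farthest libraries (0.797). glha2 with nr5a1b did not pass within time points (0.349) or without the 2 farthest libraries (0.413). pomca with cyp17a1 passed with the library total (-0.609).

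Fits that left out 1 library each ranged as follows. In ovary, nr5a1b at T3 had 1.13 to 1.69 and cyp17a1 at T3 had 0.75 to 1.56, called without replicate 4 of T3 (adjusted p = 0.0330). In pituitary, nr5a1b had 0.45 to 1.07 at T2, called without replicate 1 of T2, while its T3 fits gave 0.91 to 1.14 and its T4 fits 1.01 to 1.31. cyp17a1 in pituitary had -0.080 to 1.38 at T2, 0.67 to 1.31 at T3, where no fit called it, and -0.35 to 0.78 at T4. Steps between later time points, none called, crossed 0 for nr5a1b in ovary (-0.21 to 0.62) and in pituitary (-0.059 to 0.57 for T2 to T3, -0.013 to 0.27 for T3 to T4) and for cyp17a1 in ovary (-0.054 to 0.74) and pituitary (-0.36 to 0.96). Without replicate 2 the difference between tissues in the change of cyp17a1 crossed 0 at T2 (range -0.69 to 0.79) and T3 (-0.058 to 0.50). Between brain and liver nr5a1b had 1.196 to 2.20 and lost its call in 3 of 4 fits, and cyp17a1 had 0.70 to 1.18. The cause of these shifts was not tested.

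The number of genes called, against which the 2 genes were read, moved by over 1.5 times in several settings. In ovary it was 301 at T2 (25 with the replicate block, 99 by limma-trend, 606 by the exact test), 1121 at T3 (1 with the block, 442 and 1983) and 3515 at T4 (3347, 1600 and 4075). In pituitary it was 489 at T2 (903 by the exact test), 339 at T3 (64 with the block, 819 by the exact test) and 572 at T4 (1051). Without 1 library it ranged from 12 to 120, 1 to 2380 and 547 to 4327 in ovary and from 98 to 914, 79 to 925 and 13 to 1363 in pituitary at T2, T3 and T4.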
